A study of Mus musculus with 2 samples.

Results

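Wound repair and coagulation genes of monocytes were followed in immune cells of the colonic lamina propria (LP), the connective tissue under the gut epithelium. The 10 genes, of 32228 in the deposited matrices, were F10, F13a1, Thbs1, Inhba, Tgfbi, Spp1, Chil3, Arg1, Saa3 and Adora2b, and all 10 were found. They were chosen by name for their roles in clotting, matrix, growth factor and arginine biology, with earlier results of these data known. The 2 libraries were made with 10x Genomics 3′ chemistry, in which each captured transcript is counted once from a tag at its 3′ end by its unique molecular identifier (UMI), from colons of C57BL/6 mice aged 8 to 10 weeks given dextran sulfate sodium (DSS), a polysaccharide that damages the colonic epithelium. The WT library came from wild-type animals and the Ring1AKO library from animals with a whole-body knockout of Ring1a, a subunit of Polycomb repressive complex 1, encoded by Ring1. In each group live CD45+ (7-AAD-) cells of several mice were sorted and pooled before capture, so an effect of genotype cannot be told apart from one of the pool, the sort or the library, and no test between libraries was possible.

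The library labelled WT held 6005 cells with a median of 6354 UMIs and the library labelled Ring1AKO held 7918 with a median of 5035, after barcodes with under 1000 UMIs, under 500 genes or at least 5% mitochondrial UMIs were left out. Only 11 barcodes were kept in both. Ring1, at chr17:34020792-34024680 of GRCm38, was read at 13.4 counts per 1e6 UMIs (CPM; 95% Poisson interval 12.5 to 14.3) in all cells labelled WT and at 11.8 (11.02 to 12.7) in the Ring1AKO ones. This was no marked loss, and tags at the 3′ end cannot tell an intact transcript from one broken further 5′, so the genotypes, and the names WT and Ring1AKO used for the libraries below, rest on the labels alone. All intervals are 95% intervals of counting error only.

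Monocytes enter the inflamed gut from the blood and can turn into macrophages, which in the colon make the complement subunits C1qa, C1qb and C1qc. Newly arrived monocytes are known to make clotting factors and secreted proteins that build a provisional matrix at a wound. Thrombospondin 1 and activin A act on or within the TGF-beta family, while arginase 1 and chitinase-like proteins mark a repair-associated macrophage state.

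Myeloid cells (at least 1 UMI of Csf1r, the colony-stimulating factor 1 receptor, and at least 5 of Lyz2, lysozyme) were split into C1q-low cells, with at most 2 UMIs of the C1q genes, and C1q-high cells, with at least 5. There were 651 WT C1q-low cells, 10.8% (10.1 to 11.7) of the library, and 202 labelled Ring1AKO, 2.55% (2.22 to 2.92). The C1q-high cells numbered 246 and 160, neutrophils 164 and 168, and dendritic cells 116 and 131. The 4 monocyte markers Ly6c2, Ccr2, Vcan and Plac8 were all present in C1q-low cells of both libraries, at a summed 8883 CPM in WT and 2763 in Ring1AKO. In WT C1q-high cells the same sum was 5579 CPM and in Ring1AKO ones 938. By these sums the C1q-low cells held more than the C1q-high cells of their own library, but the Ring1AKO C1q-low cells held less than the WT C1q-high cells. Plac8 made up most of each sum, at 1852 CPM in Ring1AKO C1q-low and 4181.5 in WT C1q-high cells. Of the 4, only Vcan went the other way, at 379 CPM in Ring1AKO C1q-low and 111 in WT C1q-high cells. In WT C1q-low cells Vcan was at 368 CPM. The class is thus named here by its gate alone. The 7 macrophage markers summed to 943 CPM in WT and 3336 in Ring1AKO C1q-low cells, in the latter above the monocyte markers. Most of each sum was Apoe alone, at 795 and 3157 CPM, so the rise was not shared by the whole list. Adgre1 (65.9 and 70.9 CPM), Mrc1 (25.6 and 25.2) and Ms4a7 (13.05 and 12.01) were near level. Cx3cr1 was lower in Ring1AKO (24.03 and 12.01) and Cd63 higher (17.5 and 54.7). C1qa, part of the gate, had 12 and 7 UMIs.

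C1q-low cells of the 2 libraries differed in more than the 10 genes. Ly6c2, a surface protein of classical monocytes, was at 1184 CPM in WT and 278 in Ring1AKO. Apoe, an apolipoprotein of macrophages, was at 795 and 3157 CPM. The 8 neutrophil markers were all above 0 and summed to 894 and 4078 CPM, and 16 of the WT cells (2.46%) and 14 of the Ring1AKO cells (6.93%) carried at least 10 UMIs of S100a8, S100a9 and Retnlg together. Most of the gap between the 2 sums came from S100a8 (472 and 2618 CPM) and Retnlg (49.6 and 651). Csf3r (102 and 91.9) and Stfa2l1 (18.8 and 4.81) were lower in Ring1AKO. The part of neutrophil transcripts in the results below was not tested. Without those 16 and 14 cells the median log2 ratio of the 10 genes in C1q-low cells was 0.45, against 0.54 with them. The count of genes at least 2-fold higher was 2 either way, with Arg1, which rested on 1 cell, among them. Cells with fewer than 10 such UMIs stayed in.

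The share of a gene's UMIs that lay in C1q-low cells differed over the 10 genes. In the WT library it was 73.8% for Chil3, 69.4% for F13a1, 62.7% for F10, 60.0% for Saa3 and 57.7% for Thbs1, and in the Ring1AKO library 67.0%, 51.6%, 48.4%, 30.6% and 39.1%. It was lowest for Arg1 (22.3% and 21.9%) and Spp1 (20.02% and 8.81%). After each cell was thinned to 1000 UMIs, 64.1% (60.2 to 67.7) of WT C1q-low cells and 70.8% (64.0 to 77.0) of the Ring1AKO ones held UMIs of at least 3 of the 10 genes, against 32.5% (26.7 to 38.8) and 36.2% (28.8 to 44.2) of C1q-high cells.

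**Figure D1:**
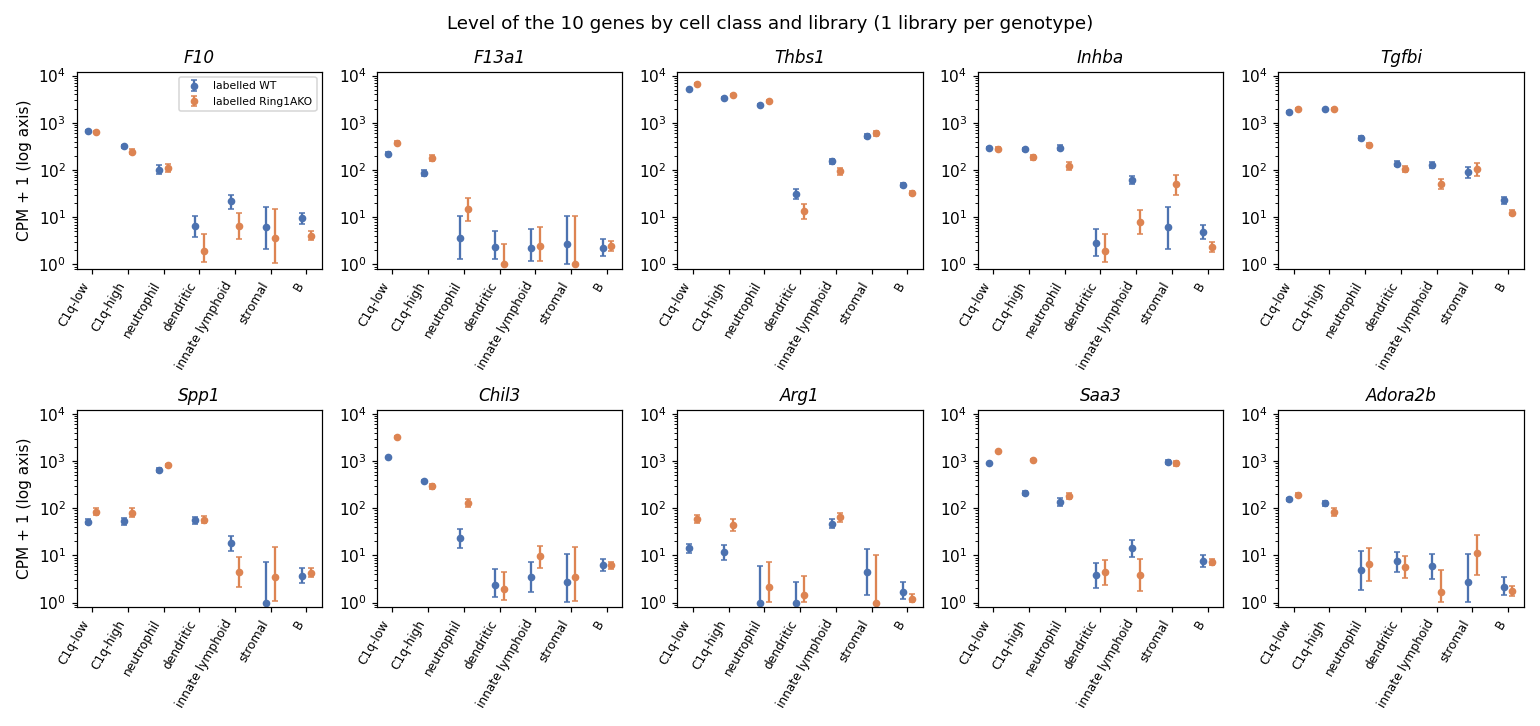
Level of each gene (CPM + 1, log axis) in 7 cell classes, with 1 point per library and bars for 95% Poisson intervals of counting error. F10, F13a1, Chil3, Thbs1 and Adora2b are highest in C1q-low cells in both libraries, Spp1 in neutrophils and Arg1 in innate lymphoid cells, while Inhba, Tgfbi and Saa3 have another highest class in WT than in Ring1AKO.

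RefSeq (GRCm38.p6) promoters were matched for 8 of the 10 genes, all but Thbs1 and Arg1. Those of Chil3, F13a1 and Saa3 are shown because these genes were at least 2-fold higher under the Ring1AKO label in a myeloid class, as described below, F13a1 only just. The 8 genes had 10 start sites, 2 each for Spp1 and F13a1, and for F13a1 the upstream one is shown. The 250 bases before the start are given 5′ to 3′ on the coding strand, with matches to the C/EBP motif (TTGCNNAA, either strand) in capitals. They lie at chr3:106167565-106167814 for Chil3, chr13:37050245-37050494 for F13a1 and chr7:46715677-46715926 for Saa3, all on the minus strand.
Chil3: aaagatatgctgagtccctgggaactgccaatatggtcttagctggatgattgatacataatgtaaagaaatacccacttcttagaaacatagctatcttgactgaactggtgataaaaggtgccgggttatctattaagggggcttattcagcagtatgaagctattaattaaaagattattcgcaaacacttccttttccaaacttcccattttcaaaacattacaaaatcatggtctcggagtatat
F13a1: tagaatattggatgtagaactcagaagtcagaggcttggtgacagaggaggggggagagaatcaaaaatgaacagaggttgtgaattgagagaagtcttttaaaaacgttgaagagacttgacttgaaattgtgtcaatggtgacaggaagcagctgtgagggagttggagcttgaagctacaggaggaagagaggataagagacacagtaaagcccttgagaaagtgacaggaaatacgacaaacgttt
Saa3: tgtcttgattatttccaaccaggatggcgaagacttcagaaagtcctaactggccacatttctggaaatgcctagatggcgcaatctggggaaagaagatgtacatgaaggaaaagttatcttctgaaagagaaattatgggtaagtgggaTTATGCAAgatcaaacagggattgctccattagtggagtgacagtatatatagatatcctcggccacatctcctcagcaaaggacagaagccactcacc
The C/EBP motif was found in 3 of the 10 windows (Saa3, Inhba and the downstream start of Spp1), and in 9.56% of 32851 RefSeq promoter windows of the same length. The hypoxia response motif ACGTG was found in the window of F10 alone, against 16.6% of all windows. The AP-1 motif TGANTCA (6.75% of all windows) and the NF-kB motif GGGANTTTC (0.941%) were found in none of the 10. These matches are letters in a window and were not tied to a factor.

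The 10 genes were first set beside all others, as a description only, since they were chosen with earlier results of these data known. In C1q-low cells 5795 genes reached 100 UMIs when both libraries were added. Their median log2 ratio of Ring1AKO over WT was -0.18, and 33.1% of them lay above 0. The median of the 10 genes here was 0.54 and 8 of the 10 lay above 0. At least 2-fold higher were 2 of the 10, Chil3 and Arg1, against a background of 1.59% of genes. None of the 10 was at least 2-fold lower, against 6.38%. For Arg1 the call rested on 1 cell, as described below, and without the richest cell of each library 1 of the 10 was at least 2-fold higher.

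Chil3 encodes the chitinase-like protein Ym1, at chr3:106147554-106167564. It was read at 1195 CPM (1168 to 1222) in C1q-low cells of the WT library and at 3234 (3148 to 3322) in the Ring1AKO ones. The log2 ratio was 1.44 (1.39 to 1.49), well above the median of all genes. The median cell held 7.69 Chil3 UMIs per 10000 in WT and 17.3 in Ring1AKO, and the cell at the 90th percentile 31.6 and 86.8. The difference was thus seen over the distribution and not in a few cells alone, and the richest cell held 1.37% and 3.29% of the UMIs. After thinning, 47.0% (43.1 to 50.9) of WT and 61.4% (54.3 to 68.1) of Ring1AKO cells held a UMI (72.4% and 76.7% unthinned, at median depths of 9911 and 7934.5 UMIs). In B cells, which should lack the gene, these were 0.344% and 0.562% (1.55% and 1.69% unthinned, at 4167.5 and 4284). Without the cells carrying neutrophil transcripts the log2 ratio was 1.34 (1.28 to 1.39).

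In C1q-high cells Chil3 did not follow this pattern. It was at 377 CPM in WT C1q-high cells and at 292 in the Ring1AKO ones, a log2 ratio of -0.37 (-0.56 to -0.19). In neutrophils it was at 22.5 and 128 CPM, from 17 and 112 UMIs, of which the richest cell held 10 and 41. The log2 ratio there was 2.44 (1.77 to 3.34). Without those cells it was 2.96 (2.02 to 4.50), from only 7 and 71 UMIs. Barcodes with under 100 UMIs, taken as cell-free, held Chil3 at 125 CPM in WT and 86.2 in Ring1AKO. The near copy Chil4 had no UMI in C1q-low or C1q-high cells of either library.

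Arg1, the arginase that splits arginine into ornithine and urea (chr10:24915221-24927484), was scarce, with 82 UMIs in WT C1q-low cells and 99 in the Ring1AKO ones. These were 13.05 CPM (10.4 to 16.2) and 59.5 (48.3 to 72.4), for a log2 ratio of 2.19 (1.75 to 2.63). A single cell labelled Ring1AKO held 73 of the 99 UMIs, and the richest WT cell held 19 of 82. Without both, the levels were 10.0 and 15.7 CPM and the log2 ratio was 0.68 (-0.07 to 1.33), so counting error covered the remaining difference. Thinned to 1000 UMIs, 0.922% (0.339 to 1.995) and 0.990% (0.120 to 3.53) of the cells held a UMI, so a difference in the share of Arg1-positive cells was not detectable at this depth. In C1q-high cells Arg1 had 25 and 48 UMIs, or 10.6 and 43.7 CPM, with at most 7 in any cell of either library. Innate lymphoid cells held 46.3 CPM in WT and 63.8 in Ring1AKO, above the C1q-low level of WT.

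**Figure D2:**
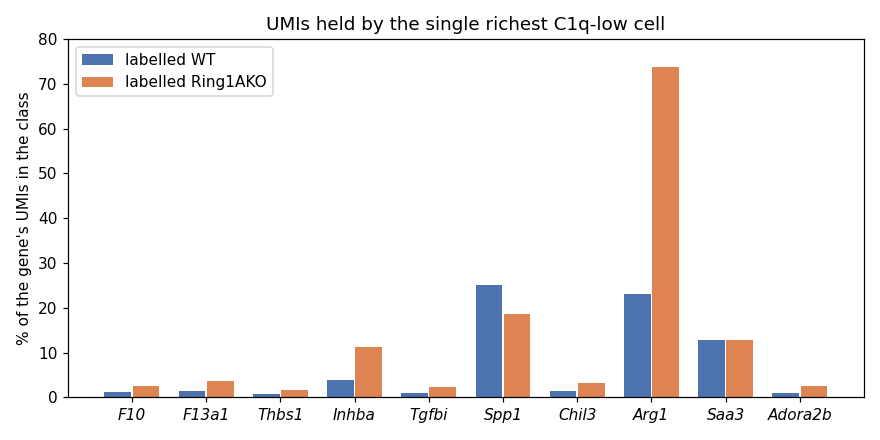
Share (%) of the UMIs of each gene in C1q-low cells that the single richest cell held, as bars per library. Arg1 in the Ring1AKO library stands alone, with 73.7% in 1 cell, and Spp1 and Saa3 follow.

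Saa3 (chr7:46711998-46715700) encodes serum amyloid A3, an acute-phase protein that is also made outside the liver. Its level in C1q-low cells was 894 CPM (871 to 918) in WT and 1601 (1541 to 1663) in Ring1AKO, a log2 ratio of 0.84 (0.77 to 0.91). In C1q-high cells it was 210 CPM (192 to 230) in WT and 1059 (999 to 1121) in Ring1AKO, a log2 ratio of 2.33 (2.18 to 2.49). A small set of cells made most of it: the richest 10% of C1q-low cells held 94.8% of the UMIs in WT and 78.4% in Ring1AKO, and 1 WT cell held 717. Without the richest cell of each library the log2 ratios were still 0.84 in C1q-low and 2.24 in C1q-high cells, but in C1q-low cells with at most 1 UMI of Ly6c2 the ratio was -0.14. A UMI was found in 13.4% (10.8 to 16.2) of thinned C1q-low cells in WT and 29.7% (23.5 to 36.5) in Ring1AKO, against 0.859% and 0.450% of B cells. Unthinned, these were 25.3% and 42.6%, and 2.23% and 2.33% of B cells. Stromal cells (71 and 46) held 960 CPM of Saa3 in WT, above the C1q-low level, and 886 in Ring1AKO, below it. Of the other serum amyloid A genes in C1q-low cells, Saa1 had 1 and 2 UMIs and Saa2 and Saa4 had none.

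F13a1 and F10 encode coagulation factors. The A chain of factor XIII cross-links fibrin, and factor X, once cut, turns prothrombin into thrombin. F13a1 (chr13:36867178-37050244) was at 222 CPM (210 to 234) in WT C1q-low cells and 375 (346 to 405) in the Ring1AKO ones, a log2 ratio of 0.76 (0.62 to 0.89). In C1q-high cells it was at 84.9 and 176 CPM, a log2 ratio of 1.05 (0.76 to 1.34). It was thus higher under the Ring1AKO label in both myeloid classes, with intervals above 0. The C1q-high ratio was just under 2-fold, at 0.96 with at least 2 UMIs of Csf1r required, 0.95 with none required and 0.99 without the 5% of cells with most genes. A UMI was found in 15.7% (12.96 to 18.7) and 25.7% (19.9 to 32.3) of thinned C1q-low cells (57.0% and 63.9% unthinned), against 0.0859% and 0.197% of B cells (0.515% and 0.394%).

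F10 (chr8:13037308-13056676) was at 686 CPM (665 to 707) in WT C1q-low cells and 639 (601 to 678) in the Ring1AKO ones. The log2 ratio of -0.10 (-0.20 to -0.01) was above the median of all genes, and it turned to 0.0797 when that median was set to 0. In C1q-high cells F10 was at 319 and 243 CPM, a log2 ratio of -0.39 (-0.60 to -0.19). The 2 clotting factors thus had ratios that lay on opposite sides of 0 in both classes.

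Thbs1, thrombospondin 1, a secreted protein of platelets and monocytes that can release latent TGF-beta (chr2:118111876-118127133), was at 5268 CPM (5212 to 5325) in WT and 6784 (6660 to 6910) in Ring1AKO C1q-low cells. The log2 ratio was 0.36 (0.33 to 0.40), and 0.18 (0.13 to 0.24) in C1q-high cells, at 3405 and 3861 CPM. Of thinned C1q-low cells 79.9% (76.6 to 82.9) and 83.7% (77.8 to 88.5) held a UMI (89.4% and 92.1% unthinned), against 3.52% and 1.97% of B cells (15.4% and 8.83%). Thbs1 was also in the cell-free barcodes with under 100 UMIs, at 919 CPM in WT and 459 in Ring1AKO. Platelet markers were near 0 in C1q-low cells, 4.61 CPM in WT and 24.03 in Ring1AKO for 4 genes together, with Ppbp at 0 in WT and Gp9 and Itga2b at 0 in Ring1AKO.

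Inhba, the subunit of activin A, a TGF-beta family ligand (chr13:16011851-16031621), was level between the libraries in C1q-low cells, at 288 CPM (275 to 302) and 284 (259 to 311). Its log2 ratio was -0.02 (-0.17 to 0.13), while subsets of these cells, given below, lay on both sides of 0. In C1q-high cells it was at 275 and 183 CPM, a log2 ratio of -0.58 (-0.82 to -0.36), and in neutrophils at 298 and 119, a log2 ratio of -1.31 (-1.67 to -0.98). The gap in neutrophils came from 225 and 104 UMIs, with 58 and 22 of them in the richest cell, and without those cells the log2 ratio was -1.23 (-1.64 to -0.85). It was within 2-fold, at -0.71, with the mean over cells and at -0.48 in cells thinned to 1000 UMIs. Tgfbi, an extracellular matrix protein induced by TGF-beta (chr13:56609523-56639562), was at 1710 CPM (1678 to 1743) and 1985 (1918 to 2054) in C1q-low cells, a log2 ratio of 0.22 (0.16 to 0.27). This ratio was -0.11 in the cells with at most 1 UMI of Ly6c2. In C1q-high cells Tgfbi was at 1922 and 1935 CPM, a log2 ratio of 0.01 (-0.07 to 0.08). Tgfbi was found in nearly all C1q-low cells, 98.3% of WT and 98.5% of Ring1AKO cells unthinned and 68.8% (65.1 to 72.4) and 76.2% (69.8 to 81.9) thinned, against 1.63% and 0.787% of thinned B cells.

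Spp1 encodes osteopontin, a matrix phosphoprotein that binds integrins and CD44 (chr5:104435118-104441050). It was a neutrophil transcript first, at 650 CPM (594 to 710) in WT and 814 (755 to 876) in Ring1AKO neutrophils, and at 50.9 (45.5 to 56.8) and 83.5 (70.2 to 98.6) in C1q-low cells. The C1q-low log2 ratio was 0.72 (0.42 to 1.00), and 0.51 (0.17 to 0.81) without cells carrying neutrophil transcripts. It was -1.34 in cells with at most 1 UMI of Ly6c2 and 1.30 with no UMI of Csf1r required. The richest cell held 25.0% and 18.7% of these UMIs, so a handful of cells set the level. In neutrophils the log2 ratio was 0.32 (0.16 to 0.49), and -0.022 when the mean over cells was used instead of summed UMIs.

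Adora2b, the low-affinity receptor of extracellular adenosine (chr11:62248984-62266453), was at 153 CPM (143 to 163) and 192 (171 to 214) in C1q-low cells, a log2 ratio of 0.33 (0.14 to 0.51). In C1q-high cells it went the other way, at 126 and 82.0 CPM, a log2 ratio of -0.61 (-0.98 to -0.27). The UMIs were spread thinly, with at most 9 in any C1q-low cell.

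**Figure D3:**
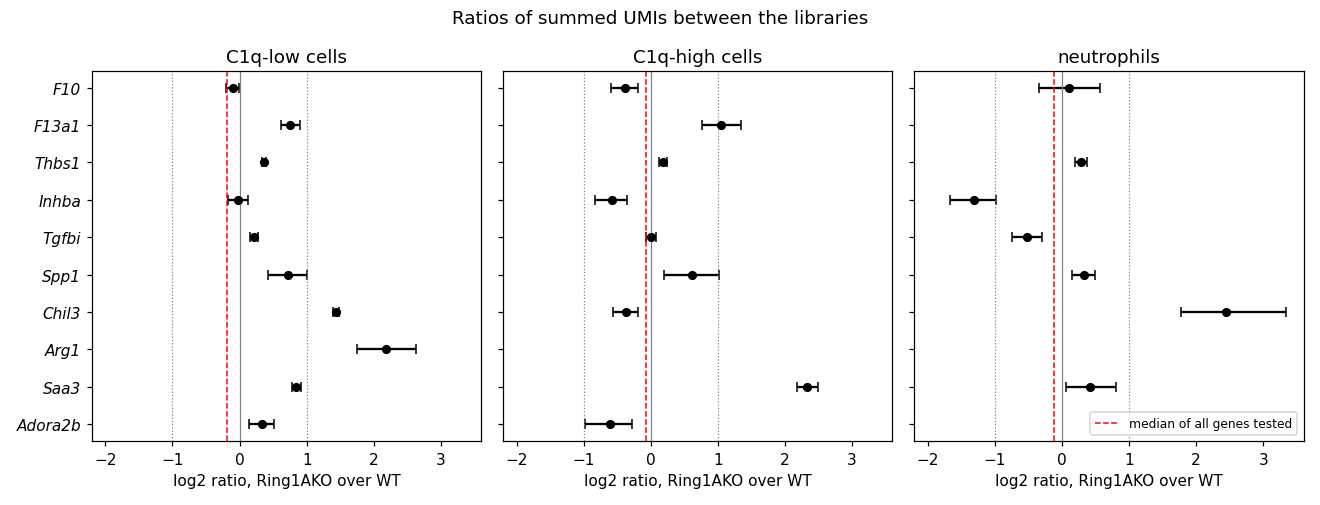
Log2 ratio of summed UMIs, Ring1AKO over WT, for each gene with at least 100 UMIs over both libraries, with 95% exact intervals of counting error, in 3 classes. Dotted lines mark 2-fold and the dashed line the median of all genes tested; Chil3 lies at 1.44 in C1q-low cells and -0.37 in C1q-high cells, and Saa3 at 0.84 and 2.33.

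In C1q-high cells, 9 of the 10 genes had at least 100 UMIs, and their median log2 ratio was 0.01, beside -0.07 for all 3944 genes tested. F13a1 and Saa3 were at least 2-fold higher, 2 of 9 against 1.85% of genes, and none was at least 2-fold lower, against 4.03%. In neutrophils 7 of the genes could be compared. Chil3 was at least 2-fold higher (background 2.34%) and Inhba at least 2-fold lower (7.58%), the latter not with the mean over cells or in thinned cells, as given above. In dendritic cells Tgfbi and Spp1 alone had 100 UMIs. Tgfbi was at 136 and 104 CPM, a log2 ratio of -0.38 (-0.64 to -0.13), and Spp1 at 54.5 and 56.5, a log2 ratio of 0.05 (-0.33 to 0.43). The Spp1 ratio rested on few cells, of which the richest held 81 of 118 UMIs in WT and 51 of 118 in Ring1AKO. It was 0.89 without these cells, and 3.18 without the 5% of cells with most genes.

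C1q-low and C1q-high cells were also compared with each other within each library. In the WT library, F10, F13a1, Chil3 and Saa3 were at least 2-fold higher in C1q-low cells, 4 of the 10 against 1.65% of genes. Their log2 ratios were 1.10 (0.99 to 1.22), 1.38 (1.17 to 1.61), 1.66 (1.56 to 1.76) and 2.08 (1.95 to 2.22). Thbs1 followed with 0.63 (0.59 to 0.66), and Tgfbi, at -0.17 (-0.22 to -0.12), was slightly higher in C1q-high cells. In the Ring1AKO library 4 of the 10 also passed, against 3.83%, but they were F10, F13a1, Chil3 and Adora2b. Chil3 had a log2 ratio of 3.47 (3.31 to 3.64), Saa3 of 0.60 (0.50 to 0.70), Inhba of 0.63 (0.39 to 0.88) and Adora2b of 1.21 (0.88 to 1.58). The gap between the classes was thus wider for Chil3 and narrower for Saa3 in the Ring1AKO library, with intervals that did not overlap those of WT. These intervals hold counting error only, not the spread between cells or libraries, and few cells held most Saa3 UMIs.

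**Figure D4:**
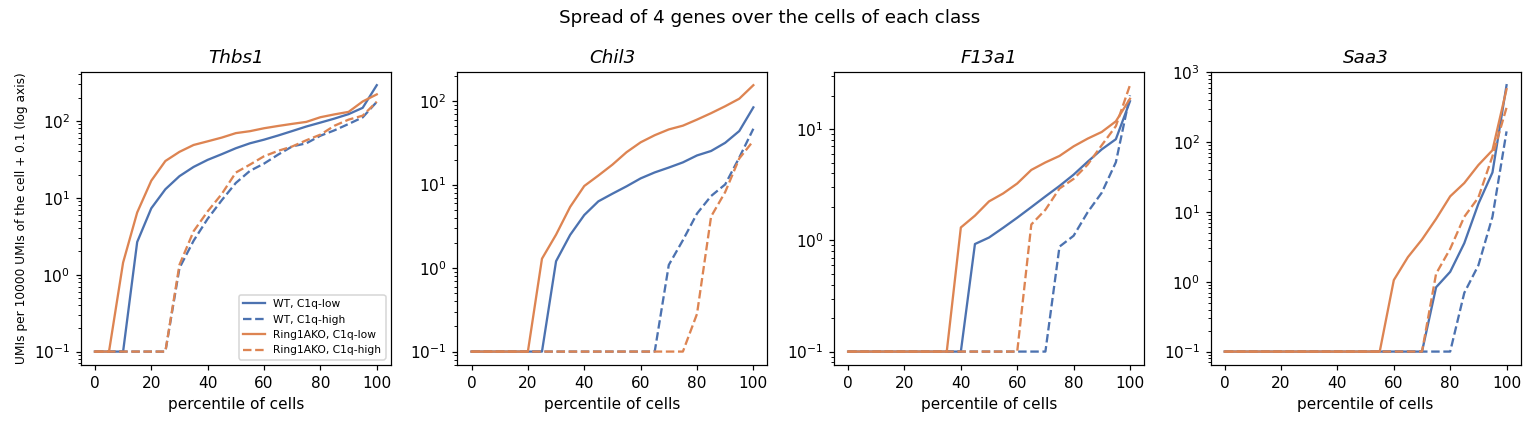
UMIs per 10000 UMIs of a cell, plus 0.1 (log axis), at each percentile of cells for 4 genes, with C1q-low cells as solid and C1q-high cells as dashed lines in each library. Thbs1 and Chil3 are shifted over most C1q-low cells, whereas Saa3 is absent from the median cell in all 4 sets and rises in the top part.

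The make-up of the C1q-low cells differed, so the genes were compared again within subsets set by Ly6c2 (at least 2 UMIs or fewer) and by MHC class II (at least 20 UMIs of H2-Aa, H2-Ab1 and H2-Eb1 per 10000, or fewer). Ly6c2+ MHCII-low cells made up 45.9% of the WT C1q-low cells and 30.7% of the Ring1AKO ones (299 and 62 cells). Ly6c2+ MHCII-high cells made up 34.1% and 4.95% (222 and 10), Ly6c2- MHCII-low cells 8.76% and 43.1% (57 and 87) and Ly6c2- MHCII-high cells 11.2% and 21.3% (73 and 43). Depth bears on a limit of 2 UMIs, and cells labelled WT were deeper.

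Chil3 was higher under the Ring1AKO label in both MHCII-low subsets. Among Ly6c2+ MHCII-low cells it was at 1763 CPM in WT and 4407 in Ring1AKO, a log2 ratio of 1.32 (1.25 to 1.39), and among Ly6c2- MHCII-low cells at 1198 and 3876, a ratio of 1.69 (1.56 to 1.83). In the 10 Ly6c2+ MHCII-high cells labelled Ring1AKO, against 222 of WT, the log2 ratio was 0.45 (0.14 to 0.72). Among Ly6c2- MHCII-high cells it was at 620 and 611 CPM, a log2 ratio of -0.02 (-0.28 to 0.23). Of the 184 Ring1AKO Chil3 UMIs there, 58 were in 1 cell. Without the richest cell of each library the ratio was -0.40 (-0.72 to -0.11). F13a1 was higher in each of the 4 subsets, with log2 ratios from 0.56 (0.36 to 0.74) in Ly6c2+ MHCII-low cells to 1.79 (1.33 to 2.19) in Ly6c2+ MHCII-high cells. The upper value rested on 56 F13a1 UMIs in 10 Ring1AKO cells, 23 of them in 1 cell. Thbs1 was at 6558 and 7361 CPM in Ly6c2+ MHCII-low cells, a log2 ratio of 0.17 (0.12 to 0.21), and at 4758 and 4640 in Ly6c2- MHCII-high cells, a log2 ratio of -0.04 (-0.13 to 0.06). In Ly6c2- MHCII-low cells its ratio was 0.22 (0.15 to 0.29) and in Ly6c2+ MHCII-high cells 0.43 (0.30 to 0.54). The Thbs1 value of 0.36 in all C1q-low cells was thus above that of each subset but the last, which had 10 Ring1AKO cells. F10 had log2 ratios of -0.12 (-0.27 to 0.02), -0.28 (-0.47 to -0.08) and -0.54 (-0.90 to -0.21) in the Ly6c2+ MHCII-low, Ly6c2- MHCII-low and Ly6c2- MHCII-high subsets, and of -1.36 (-2.07 to -0.84) in the Ly6c2+ MHCII-high one, so none was above 0. Tgfbi was above 0 only in Ly6c2+ MHCII-low cells, at 1718 and 1962 CPM and a log2 ratio of 0.19 (0.10 to 0.28). Its ratios were -0.20 (-0.32 to -0.09) in Ly6c2- MHCII-low, -0.09 (-0.23 to 0.05) in Ly6c2- MHCII-high and -0.71 (-1.01 to -0.45) in Ly6c2+ MHCII-high cells. For Inhba the ratio was 0.62 (0.21 to 1.07) in Ly6c2- MHCII-low cells but -0.88 (-1.63 to -0.34) in Ly6c2+ MHCII-high cells. The latter rested on 22 Ring1AKO UMIs. Inhba was at 0.20 (-0.04 to 0.42) in Ly6c2+ MHCII-low and 0.21 (-0.14 to 0.55) in Ly6c2- MHCII-high cells.

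Saa3, Arg1 and Spp1 had no common direction over the subsets. Saa3 was at 783 and 1953 CPM in Ly6c2+ MHCII-low cells, a log2 ratio of 1.32 (1.22 to 1.42), but at 2898 and 1374 in Ly6c2- MHCII-low cells, a ratio of -1.08 (-1.20 to -0.95). In the latter subset 1 WT cell held 576 of 1256 UMIs, and without the richest cell of each library the log2 ratio was -0.72 (-0.88 to -0.56). Spp1 had log2 ratios of 1.69 (1.28 to 2.08) and -1.72 (-2.28 to -1.22) in the same 2 subsets. Of the 104 Spp1 UMIs of Ly6c2- MHCII-low WT cells, 80 were in 1 cell, and without the richest cell of each library the ratio there was -0.86 (-1.82 to 0.05). For Arg1, 62 of the 82 WT UMIs were in Ly6c2- MHCII-low cells, and 77 of the 99 Ring1AKO UMIs were in Ly6c2+ MHCII-low cells, 73 of them in 1 cell.

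**Figure D5:**
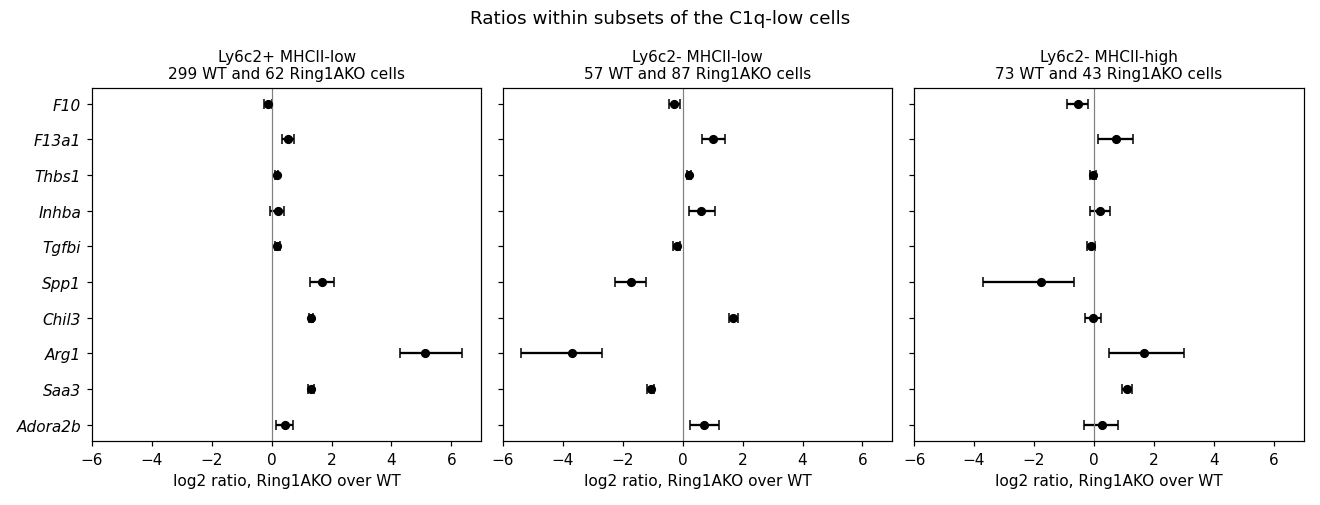
Log2 ratio, Ring1AKO over WT, with 95% exact intervals of counting error, in 3 subsets of the C1q-low cells (number of cells above each panel). F13a1 is above 0 in all 3 and Chil3 in both MHCII-low subsets, while Saa3, Arg1 and Spp1 change side.

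Genes of the same pathways were described from 9 lists. Most lists also held genes already followed above, such as F10, F13a1 and Thbs1 for coagulation and Thbs1 and Spp1 for matrix and repair. Those genes enter the counts and medians of their lists, which are thus not independent of the results above. Other genes are given with the WT level in CPM, the Ring1AKO level in CPM and the log2 ratio in parentheses. Of 25 coagulation and fibrinolysis genes, 15 had 100 UMIs in C1q-low cells, of which 2 were at least 2-fold higher and 1 lower, with a median log2 ratio of 0.28. Over all genes tested in these cells, 1.59% were at least 2-fold higher and 6.38% lower, and the median was -0.18, which stand beside the counts and medians of each list. The plasminogen activator Plat (15.1 and 36.04 CPM, log2 ratio 1.26) and its inhibitor Serpinb2 (41.1 and 89.5, 1.13) were both at least 2-fold higher, followed by the protein C receptor Procr (23.2 and 40.8, 0.83). The lowest were heparanase Hpse (44.4 and 16.2, -1.41), factor V F5 (32.3 and 19.2, -0.71) and protein S Pros1 (20.7 and 12.6, -0.66). Of 11 activin and TGF-beta genes tested none passed 2-fold, with Smad4 (76.9 and 43.2, -0.81), Acvr1b (18.8 and 13.8, -0.39) and Tgfbr2 (24.2 and 18.6, -0.34) the lowest and Smad3 (17.2 and 25.2, 0.57), Smad7 (43.6 and 63.7, 0.55) and Tgfbi the highest.

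Of 16 matrix and repair genes, 4 were at least 2-fold higher and none lower, with a median log2 ratio of 0.54. The epidermal growth factor receptor ligand Areg was at 58.1 CPM in WT and 311 in Ring1AKO (log2 ratio 2.42), the matrix protein Ecm1 at 51.1 and 149 (1.55) and the neutrophil collagenase Mmp8 at 58.2 and 150 (1.36). The lowest of the list were Mmp12 (14.3 and 9.01, -0.59), the transglutaminase Tgm2 (613 and 525, -0.22) and the proteoglycan Vcan (368 and 379, 0.05). Of 6 alternative activation genes, Chil3 and Arg1 were higher and the chemokine Ccl24 (24.7 and 10.2, -1.20) lower, while Il4ra (213 and 187, -0.18), Clec10a (27.8 and 25.2, -0.12) and Mrc1 (25.6 and 25.2, 0.00) stayed within 2-fold. The median log2 ratio of this list was -0.06.

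In the arginine and polyamine list 8 genes were tested. Arg2, the mitochondrial arginase, was at 123 and 231 CPM (0.91) and ornithine decarboxylase Odc1 at 278 and 459 (0.73), whereas Nos2 (37.7 and 21.02, -0.81), Ass1 (102 and 63.7, -0.67) and Sat1 (999 and 713, -0.49) lay lower. Arg2 rested on 770 and 384 UMIs. Of the adenosine genes, Adora2a was at 58.1 and 85.9 CPM (0.57) and the ectonucleotidase Entpd1 at 149 and 123 (-0.27). All 4 acute-phase genes tested lay above 0, beside 33.1% of all genes tested in these cells. They were Lcn2, lipocalin 2, at 61.1 and 291 CPM (2.25), Saa3, the formyl peptide receptor Fpr2 (75.9 and 139, 0.87) and haptoglobin Hp (443 and 550, 0.31). Lcn2 and Mmp8 are also neutrophil granule genes. Of the acute-phase genes, Lcn2, Fpr2 and Hp were at least 2-fold higher in neutrophils than in C1q-low cells in both libraries. Over all genes tested, 8.18% in WT and 12.2% in Ring1AKO were higher to that degree. Saa3 was lower in neutrophils. The part of neutrophil transcripts in the acute-phase ratios was not tested.

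Among 8 receptors for products of the 10 genes, the integrin chains Itga4 (263 and 109 CPM, -1.26) and Itgb1 (230 and 113, -1.02) were at least 2-fold lower, followed by Cd47 (366 and 276, -0.40), a receptor of thrombospondin 1. Fpr2, Cd44 (1157 and 1609, 0.48) and Itgb5 (54.6 and 68.5, 0.34) were the highest. Of 10 hypoxia genes none passed 2-fold, from Hk2 (204 and 167, -0.29), Hif1a (476 and 458, -0.05) and Vegfa (319 and 347, 0.12) to Ankrd37 (20.7 and 29.4, 0.53), Egln3 (14.003 and 19.8, 0.53) and Ndrg1 (161 and 264, 0.72). Of these 10 genes 8 lay above 0, with a median log2 ratio of 0.44, beside 33.1% and -0.18 for all genes tested in these cells.

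Over 20 points, the classes of at least 20 cells in each library, the pattern of each gene was compared with 10666 others by Pearson correlation of log2(CPM + 1). F13a1 and Chil3 were each other's likest gene (r = 0.97), followed for both by Apoc2 (0.95 each). Thbs1 was most like Sod2 (0.96) and Inhba (0.96), and Inhba most like Thbs1 and F10 (0.93). F10 was nearest to Gm36161 (0.95) and Klra2 (0.95), Tgfbi to Sirpa (0.96) and Bach1 (0.94), Saa3 to Sod2 (0.94) and Mtus1 (0.94), and Adora2b to Csf1r (0.93), which was part of the gate, and Ccl9 (0.92). Spp1 was nearest to 1600010M07Rik (0.96) and Wfdc17 (0.95), and Arg1, the least matched, to Tmem37 (0.79) and Ldhb (0.77). The points share libraries and depth, and these values are descriptions.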

How the data were processed

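The deposited files were raw, unfiltered matrices of UMI counts per gene and barcode, made by the authors with Cell Ranger and not normalized. The file header names Cell Ranger 4 and the submitters' processing notes name Cell Ranger 6.0.2, Seurat and mm39, while the methods of the study name mm10. No coordinate came from the files. Positions were taken from GENCODE on GRCm38. The libraries held 74414511 (WT) and 81862096 (Ring1AKO) UMIs.

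Genes and lists were chosen with earlier results of these data known. Cells were put into classes by marker UMIs, and cells with markers of more than 1 class (748 and 811), which would hold most doublets between classes, and of none (476 and 503) were left out. No doublet caller was run. Neutrophils needed at least 3 UMIs of Csf3r and Cxcr2 and 10 of S100a8 and S100a9. UMIs were summed per library and class and scaled to CPM, and log2 ratios had 1 UMI added to each sum, for genes with at least 100 UMIs over both. Intervals were exact (Poisson, Clopper-Pearson, and conditional on the counts for ratios). With 1 library per group no test was made. Members were all named, and list genes where among the 3 highest or lowest ratios. Of the listed genes 1 (Ero1l) was absent. A further marker of the lists is not reported here. Python 3.11.15, numpy 2.4.6, scipy 1.17.1 and pandas 2.3.3 were used. The code for ratios and intervals recovered known folds in simulated counts. Those counts were drawn with counting error alone, so they do not show how the intervals behave where few cells hold most UMIs. The alternatives tried were 12 planned and 4 added after seeing the data.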

Additional observations from a re-analysis of the deposited data

Results flagged for a closer look

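The ratio of Chil3 differed between the myeloid classes. The log2 ratio in C1q-low cells minus that in C1q-high cells was 1.81, with ratios on opposite sides of 0 and intervals, of counting error only, that do not overlap. For Adora2b the same difference was 0.94, also with ratios on opposite sides of 0. Neither difference was tested, since each group was 1 library. The C1q-high cells also differed in make-up, with Ly6c2 at 832 CPM in WT and 41.0 in Ring1AKO, and Plac8 at 4181.5 and 668. They were not split into subsets, and the part of this make-up in their ratios was not tested.

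Cells that no marker gate took, and that enter no comparison above, held 6.96% of the UMIs of the 10 genes in the WT library and 13.9% in the Ring1AKO library. In these cells Thbs1 was at 1571 CPM in WT and 1944 in Ring1AKO, with a median depth of 3405 and 2919 UMIs per cell.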

How the results depend on the processing

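In C1q-low cells, none of the 16 alternatives turned the ratios of Chil3, F13a1, Thbs1 or Adora2b below 0. The median log2 ratio, 0.54 over the 10 genes, fell to 0.32 when at least 2 UMIs of Csf1r were required. In cells with at most 1 UMI of Ly6c2 it was 0.17, without Arg1, which had fewer than 100 UMIs there. The value of 0.17 is thus not one for all 10 genes, and it leaves out an Arg1 ratio of -1.48. The number at least 2-fold higher fell from 2 to 1 when cells were thinned to 1000 UMIs and when the cell richest in each gene was left out. It rose with the median of all genes set to 0, where Saa3 also passed 2-fold. The highest Saa3 log2 ratio over the alternatives was 1.09. Among cells with at most 1 UMI of Ly6c2, 1 gene with at least 100 UMIs (Spp1) was at least 2-fold lower, Arg1 having fewer UMIs. In these cells the log2 ratios of Tgfbi (-0.11), Saa3 (-0.14), Arg1 (-1.48) and Spp1 (-1.34) turned from above 0 to below it. F10, below 0 in all C1q-low cells, stayed below 0 in these cells too. F10 in C1q-low cells turned to 0.0797 with the median of all genes set to 0, and Spp1 in neutrophils to -0.022 with the mean over cells. In other classes, Inhba in neutrophils was within 2-fold with the mean over cells (-0.71) and after thinning (-0.48), F13a1 in C1q-high cells lay between 0.95 and 1.62, and Spp1 in dendritic cells between 0.033 and 3.18. The cause of each was not tested, except that setting the median to 0 adds 0.18 to every ratio in C1q-low cells by construction. With thinning, which left few UMIs, 17 of 28 single values left their interval, and none whose interval lay off 0 turned sign. No paired analysis was possible because each group had 1 library and the number 1 in both labels names no pair, and no replicate could be left out. Few UMIs limit Arg1 in all classes, and 8 of the 10 genes in dendritic cells, though these cells had median depths of 14410.5 (WT) and 15181 (Ring1AKO) UMIs.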
